A study of Mesocricetus auratus with 10 samples.

Results

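Lysyl oxidases, the TGF beta ligands and a pair of genes used as markers of activated stellate cells were followed in fatty liver of the golden hamster (Mesocricetus auratus). The 10 genes were chosen by name: LOX, LOXL1, LOXL2, LOXL3, LOXL4, ACTA2, PDGFRB, TGFB1, TGFB2 and TGFB3. All probes that the array's design assigned to these names were taken, which gave 45 probes in 64 spots from 27 assembled transcripts, for 9 of the 10 genes and out of 116452 probes in all. LOXL4 had no probe of that name and was not analysed here. Of the 45 probes, 37 passed the filter, which asked for a signal well above background, in either RNA, on 10 or more of the 20 arrays and for no missing array. The 8 probes that did not pass belonged to LOX (1), LOXL1 (2), LOXL3 (2), TGFB2 (2) and TGFB3 (1).

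Livers of 10 male hamsters on a high fat diet (HFD) were each hybridised against 1 pool of liver RNA from 10 hamsters on a standard diet (STD), on 2 arrays with exchanged dyes. The labels give no strain, age or time on the diets. The pool carries no spread between its animals, so each test treats it as a fixed reference, and the direction of every ratio rests on the dyes given in the array names. Values are log2 ratios of HFD liver over the pool, as mean ± SD over the 10 HFD animals, and adjusted p is that of limma over all 13827 genes or, for single probes, over all 103879 probes tested. A gene is described by its brightest probe unless another is named, and it is called higher or lower at an adjusted p under 0.05. The share of probes well above background per array was 77.2% to 97.7% for HFD RNA and 76.7% to 96.7% for the pool. The 6 arrays of animals 5 to 10 with HFD RNA in Cy3 stood apart: their median correlation was 0.84 to 0.89 with each other and 0.44 to 0.51 with the other 14 arrays. Among those 14 arrays the median correlation was 0.44 to 0.68, so the 6 were set apart mainly by their likeness to each other.

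Lysyl oxidases are secreted copper enzymes that oxidise lysine side chains in collagen and elastin, and the aldehydes formed join into the crosslinks that make a matrix stiff. In injured liver the main source of fibrillar collagen is the hepatic stellate cell, which on activation takes on a contractile phenotype with smooth muscle alpha actin (ACTA2) and the PDGF receptor beta (PDGFRB). TGF beta, secreted in a latent complex and released by integrins and proteases, is the best known signal for that matrix production, and PDGF for the cells' proliferation and migration.

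The probes are 60 bases long, and their sequences are given in the array files. Those on which the results turn are printed 5′ to 3′ for 4 of the genes. Capitals mark the longest exact stretch shared, on either strand, with the partner probe that the sentence before it names, and a probe printed without capitals is shown for its ratio alone. For LOXL2 the brightest probe is printed because it gave the highest mean ratio of the lysyl oxidases. Its capitals mark 19 bases shared with a probe of an unnamed transcript, and the brightest probe of a separate LOXL2 transcript stands beside it.
LOXL2 CUST_1264_PI426903241: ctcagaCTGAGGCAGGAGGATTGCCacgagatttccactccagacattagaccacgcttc
LOXL2 CUST_36062_PI426903241: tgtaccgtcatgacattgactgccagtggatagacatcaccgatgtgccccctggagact
For LOXL1 the brightest and the second brightest probes are shown because they moved in opposite directions, and a further pair because it reads the same 56 bases on opposite strands. The capitals in the second brightest probe mark 45 bases that it shares with a LOXL1 probe that did not pass the filter.
LOXL1 CUST_6461_PI426903241: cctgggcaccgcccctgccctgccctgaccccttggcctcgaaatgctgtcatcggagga
LOXL1 CUST_26904_PI426903241: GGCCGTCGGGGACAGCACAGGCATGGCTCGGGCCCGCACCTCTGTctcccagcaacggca
LOXL1 CUST_38352_PI426903241: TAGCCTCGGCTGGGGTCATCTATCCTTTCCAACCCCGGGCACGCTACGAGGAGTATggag
LOXL1 CUST_41603_PI426903241: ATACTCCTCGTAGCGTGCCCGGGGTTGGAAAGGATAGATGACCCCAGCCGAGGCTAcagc
For ACTA2 the brightest probe and a probe of another transcript resemble each other on opposite strands, with 49 identical of 55 aligned bases and 19 in 1 exact stretch. The last ACTA2 probe shown had the lowest mean ratio of the 10.
ACTA2 CUST_13033_PI426903241: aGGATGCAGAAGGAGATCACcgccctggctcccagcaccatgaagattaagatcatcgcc
ACTA2 CUST_22292_PI426903241: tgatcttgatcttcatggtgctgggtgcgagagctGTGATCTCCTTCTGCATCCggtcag
ACTA2 CUST_10276_PI426903241: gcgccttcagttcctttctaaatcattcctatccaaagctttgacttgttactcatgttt
For TGFB1 both probes lie on the same transcript and gave ratios of opposite sign.
TGFB1 CUST_102371_PI426903241: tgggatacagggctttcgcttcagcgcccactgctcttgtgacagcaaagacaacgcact
TGFB1 CUST_102372_PI426903241: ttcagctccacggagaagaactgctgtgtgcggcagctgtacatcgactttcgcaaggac

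By its brightest probe, LOXL2, ACTA2, LOXL1 and TGFB3 were higher in HFD liver, none of the 9 genes was lower, and LOX, LOXL3, PDGFRB, TGFB1 and TGFB2 were not called. LOXL2 rose 1.45-fold and ACTA2 1.34-fold, each in 10 of 10 animals, and the changes of LOXL1 and TGFB3 were smaller. Of all 13827 genes, 2257 (16.3%) were above 0 in all 10 animals, which share the pool. Calls were common on this array: 60.3% of all genes tested were called, 31.4% as higher and 28.9% as lower, and the 4 of 9 genes called higher are to be read against the 31.4%. The median mean ratio was 0.08 over the 9 genes and 0.01 over all genes. At an unadjusted p under 0.05 limma counted 6 of the 9. The share of all genes at that unadjusted p is not given, and 60.3% of them passed even after adjustment. In liver tissue, more cells of a type and more RNA per cell cannot be told apart.

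**Figure D1:**
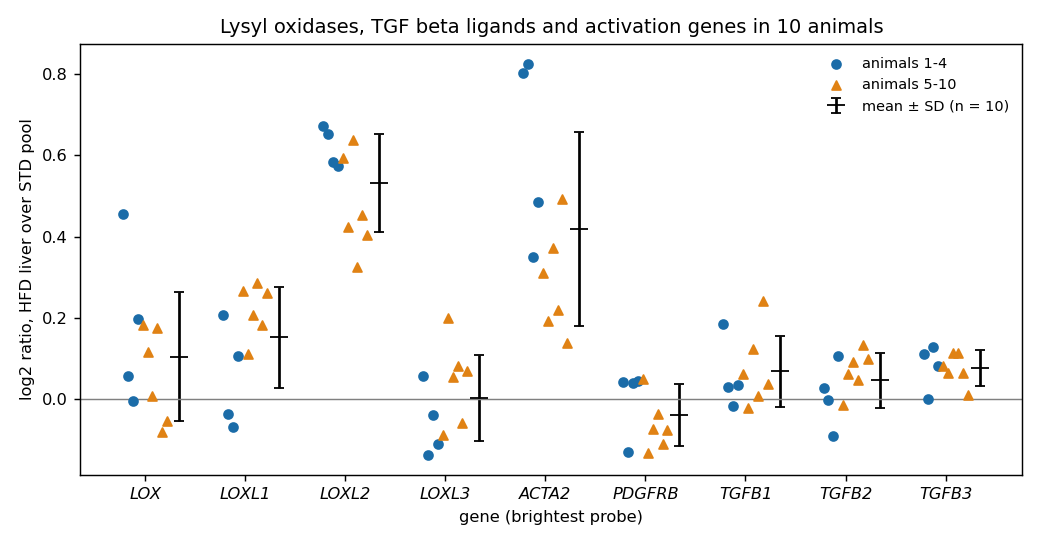
Log2 ratio of HFD liver over the STD pool (vertical axis) for the brightest probe of each gene (horizontal axis); each point is 1 animal, circles for animals 1 to 4 and triangles for animals 5 to 10, and bars give the mean ± SD over 10 animals. All 10 points lie above 0 for LOXL2 and ACTA2, and animal 1 lies alone at 0.46 for LOX.

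LOXL2, a lysyl oxidase that acts on collagen IV among other substrates, had the clearest change. Its ratio was lowest at 0.33 in animal 8, had a median of 0.58 and was highest at 0.67 in animal 1. Every animal lay above the pool, and the mean of 0.53 ± 0.12 (SD, n = 10) was larger than the spread between animals. Its adjusted p was 1.04e-07 (limma), and the exact sign-flip permutation test, two-sided, gave 0.00195, the smallest it can give with 10 animals. Of all genes tested, 321 (2.32%) were called with a mean ratio at least as high.

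Over all probes of the array, 55.1% were called, 26.7% as higher and 28.4% as lower, beside 13 of the 37 tested here, 10 higher and 3 lower. Of the 5 LOXL2 probes 4 rose, and they come from 2 of its 3 assembled transcripts. The 3 probes of the second transcript averaged 0.36 ± 0.13 and ranged from 0.16 to 0.60 over the animals, with all 10 above 0. Their separate means were 0.36, 0.35 and 0.36. The fifth probe, of the third transcript, was at -0.02 ± 0.06 with 3 animals above 0 and was not called (adjusted p 0.623). The brightest probe exceeded the mean of the probes from the other transcripts by 0.27 (95% interval 0.18 to 0.35) in 10 of 10 animals (exact sign-flip permutation test, p = 0.00195, adjusted 0.00488 over 5 genes).

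The brightest LOXL2 probe also shares stretches of 16 to 19 bases with 9 probes of unnamed transcripts, 2 on the same strand and 7 on the opposite one, as the capitals in its sequence show for the longest. That longest partner was lower in HFD liver, at -0.20 ± 0.14 (adjusted p 0.00107), and the means of the other partners ran from -0.07 to 0.08. Signal from these transcripts at the LOXL2 probe was not tested. The 3 probes of the second LOXL2 transcript share no stretch of 16 bases with any other probe. LOXL2 was above the pool on 20 of 20 single arrays, and its mean was 0.57 with HFD RNA in Cy5 and 0.50 with HFD RNA in Cy3.

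**Figure D2:**
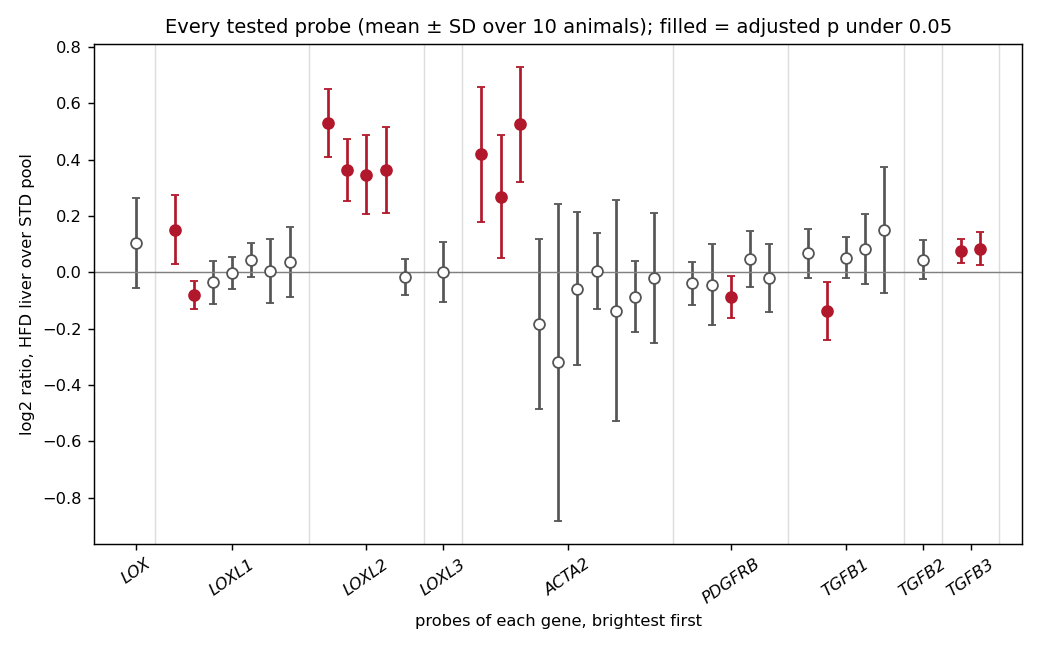
Mean log2 ratio of HFD liver over the STD pool (vertical axis) for each of the 37 tested probes, grouped by gene and ordered by brightness (horizontal axis); bars are SD over 10 animals and filled points have an adjusted p under 0.05. LOXL2 has 4 filled points above 0, ACTA2 has 3 filled points and 7 open ones, and LOXL1 and TGFB1 hold probes on both sides of 0.

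LOXL1, known for the upkeep of elastic fibres, was higher by its brightest probe alone. That probe ranged from -0.07 in animal 3 over a median of 0.19 to 0.29 in animal 8. In 8 of 10 animals it lay above 0, the mean was 0.15 ± 0.12, and the adjusted p was 0.00325 (limma). Of the 6 other probes that passed, none was called higher, 5 were not called and the second brightest was lower.

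The second brightest LOXL1 probe had a mean of -0.08 ± 0.05, with 9 of 10 animals below 0 (adjusted p 0.0112). The difference between the brightest probe and the mean of those from other transcripts was 0.16 (95% interval 0.06 to 0.25; higher in 8 of 10 animals; exact sign-flip permutation test, p = 0.0137, adjusted 0.0228). The opposite-strand pair that reads the same 56 bases gave 0.004 and 0.04, neither of them called. Both count among the 6 probes of other transcripts, although probes on opposite strands would read RNA of different strands. By dye, the brightest probe had a mean of 0.02 with HFD RNA in Cy5 and 0.29 with HFD RNA in Cy3, while the second brightest had 0.08 and -0.24. The call for LOXL1 was lost on the Cy5 arrays (0.02, adjusted p 0.761), without the 6 arrays that stood apart (0.06, adjusted p 0.25), in animals 1 to 4 alone (0.05, adjusted p 0.553) and with the mean of all its probes (0.02, adjusted p 0.379). The part of the dye and of the 6 arrays in this result was not tested.

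LOX, the founding enzyme of the family, was measured by a single probe close to background, well above it in the HFD RNA on 17 arrays and in the pool on 16. Its ratios ran from -0.08 in animal 9 over a median of 0.09 to 0.46 in animal 1. It was above 0 in 7 of 10 animals, and the mean of 0.10 ± 0.16 missed the threshold (adjusted p 0.0631, limma). It passed in 6 of 29 other settings, among them without animal 9 (0.13, adjusted p 0.0345) and without animal 10 (0.12, adjusted p 0.0420). Without animal 1, the highest, the LOX mean was 0.07 (adjusted p 0.127). Its size moved with the processing and stayed short of the threshold: it was 0.32 with the scanner software's processed signals (adjusted p 0.0619), 0.26 in the authors' log2 ratios (adjusted p 0.0633) and 0.04 with median centring (adjusted p 0.592). LOXL3, also measured by 1 dim probe, ranged from -0.14 to 0.20 around a median of 0.01. On each side of 0 lay 5 animals, and the mean was 0.002 ± 0.11 (adjusted p 0.957).

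Between the lysyl oxidases, LOXL2 had the larger ratio in every animal. It exceeded LOX by 0.43 (95% interval 0.31 to 0.55), LOXL1 by 0.38 (0.23 to 0.53) and LOXL3 by 0.53 (0.39 to 0.67), each in 10 of 10 animals (exact sign-flip permutation tests, two-sided, adjusted p 0.00586 over 9 pairs). By its brightest probe, LOXL1 exceeded LOXL3 by 0.15 (0.06 to 0.24; 8 of 10 animals; exact permutation, adjusted p 0.0220). With the mean of all probes the means were 0.02 for LOXL1 and 0.002 for LOXL3, and on Cy5 arrays 0.02 and -0.03. The differences of LOX from LOXL1 (-0.05, interval -0.18 to 0.08) and from LOXL3 (0.10, interval -0.03 to 0.23) did not pass. The gap between LOXL2 and the dim LOX probe moved with the processing. With the processed signals the means were 0.54 for LOXL2 and 0.32 for LOX.

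ACTA2, the smooth muscle alpha actin, was higher by its brightest probe in all animals. The ratio was lowest at 0.14 in animal 10, had a median of 0.36 and was highest at 0.83 in animal 2. The mean of 0.42 ± 0.24 had an adjusted p of 1.13e-04 (limma) and an exact sign-flip permutation p of 0.00195. Animals 1 and 2 stood highest, at 0.80 and 0.83, and the remaining 8 lay between 0.14 and 0.49. The mean was 0.62 in animals 1 to 4 and 0.29 in animals 5 to 10, and this difference of -0.33 did not pass over all genes (adjusted p 0.0547, limma; 9.44% of all genes did). It was seen in both dye orientations: on Cy5 arrays the means were 0.47 and 0.21, and on Cy3 arrays 0.76 and 0.37.

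The probes named ACTA2 did not move together. Of the 10, 3 rose: both probes of the brightest transcript (0.42 and 0.27 ± 0.22) and 1 of another transcript (0.53 ± 0.21, adjusted p 6.48e-06). The other 7 were not called and had means from -0.32 to 0.01. The difference between the brightest probe and the mean of the 8 from other transcripts was 0.45 (95% interval 0.28 to 0.62) in 10 of 10 animals (exact sign-flip permutation test, p = 0.00195, adjusted 0.00488). With the mean of all 10 probes the ACTA2 ratio was 0.04 and the call was lost (adjusted p 0.550). The mean of the 8 and the mean of all 10 include the opposite-strand partner of the brightest probe, which would read RNA of the other strand. Values without that partner are not given here.

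Of these 7 probes, the opposite-strand partner of the brightest one averaged -0.18 ± 0.30 (adjusted p 0.0715). It lay above 0 in animals 1 to 4 and below 0 in animals 5 to 10, from -0.54 to 0.37. The probe with the lowest mean, -0.32 ± 0.56, ranged from -1.04 in animal 8 to 0.88 in animal 4 (adjusted p 0.0837). The transcript with 3 probes had a mean of -0.09 ± 0.24, with 3 animals above 0 and 7 below. The spread between animals was thus wide for several of the probes that did not pass.

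Actin genes are alike in their coding parts, and the name ACTA2 is uncertain where a probe resembles other actins. The other actin genes were looked at for this reason, after values were seen. Of their probes, 9 of 12 were higher for ACTA1, 4 of 6 for ACTB, 3 of 3 for ACTC1, 6 of 7 for ACTG1 and 2 of 3 for ACTG2, and 1 probe, of ACTA1, was lower. Signal from other actins at the ACTA2 probes was not tested.

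**Figure D3:**
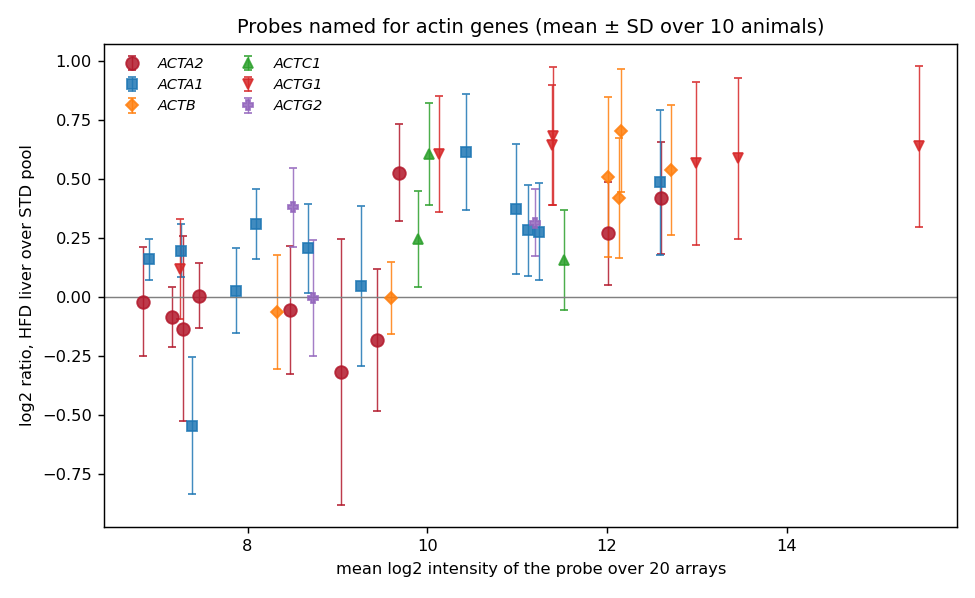
Mean log2 ratio of HFD liver over the STD pool (vertical axis; bars are SD over 10 animals) against the mean log2 intensity of each probe over 20 arrays (horizontal axis), for every tested probe named for 1 of 6 actin genes. The 3 ACTA2 probes that rose (0.27 to 0.53) lie at higher intensity than the 7 that were not called (-0.32 to 0.01), and most probes of the other actins lie above 0.

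PDGFRB, the receptor through which PDGF acts on stellate cells, showed no call by its brightest probe. The ratio ranged from -0.13 in animal 6 over a median of -0.05 to 0.05 in animal 5. It was above 0 in 4 animals and below in 6, with a mean of -0.04 ± 0.08 (adjusted p 0.239, limma). One of its 5 probes was lower (-0.09 ± 0.08, 8 of 10 animals below 0, adjusted p 0.0165) and the 4 others were not called. The brightest probe had a mean of 0.07 with HFD RNA in Cy5 and -0.14 with HFD RNA in Cy3, where it passed as lower (adjusted p 0.00393).

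The TGF beta ligands had mean ratios between 0.05 and 0.08, and the sizes depended on the processing. TGFB3 ranged from -0.0004 in animal 2 over a median of 0.08 to 0.13 in animal 3. It lay above 0 in 9 of 10 animals, and the mean of 0.08 ± 0.04 passed (adjusted p 0.00766, limma), a 1.05-fold difference. A dimmer probe of another TGFB3 transcript gave 0.08 ± 0.06, also in 9 of 10 animals (adjusted p 0.0107). The mean of that second probe was 0.17 on Cy5 arrays and -0.0007 on Cy3 arrays. The TGFB3 call was lost on Cy3 arrays (0.04, adjusted p 0.224), without the 6 arrays that stood apart (0.08, adjusted p 0.0558), in animals 1 to 4 (0.08, adjusted p 0.239) and in the later scan sessions (0.07, adjusted p 0.112). The TGFB3 mean was larger, and called, with the processed signals (0.15, adjusted p 0.00105), in the authors' log2 ratios (0.16, adjusted p 0.00192) and on Cy5 arrays (0.12, adjusted p 0.00827).

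TGFB1, the ligand most studied in liver fibrosis, had ratios from -0.02 in animal 6 over a median of 0.04 to 0.24 in animal 9. In 8 of 10 animals it was above 0, and the mean of 0.07 ± 0.09 missed the threshold (adjusted p 0.0603, limma). Its sign turned with the dye: the mean was -0.13 with HFD RNA in Cy5, where 1 of 10 arrays lay above 0 (adjusted p 0.00788), and 0.27 with HFD RNA in Cy3, where 10 of 10 did (adjusted p 1.95e-04). The second brightest of its 5 probes was lower, at -0.14 ± 0.10 in 9 of 10 animals (adjusted p 0.00311), and gave -0.12 and -0.16 by dye. The other 3 averaged 0.05, 0.08 and 0.15 and were not called. Without animal 3 the brightest probe reached 0.08 (adjusted p 0.0466), and without animal 6 also 0.08 (adjusted p 0.0485). It also passed with median centring (0.12, adjusted p 0.0291) and with the processed signals (0.10, adjusted p 0.0451).

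TGFB2 was measured by 1 probe that passed, from -0.09 in animal 3 over a median of 0.05 to 0.13 in animal 9. It was positive in 7 of 10 animals, with a mean of 0.05 ± 0.07 (adjusted p 0.138), and without animal 3 it passed at 0.06 (adjusted p 0.0467). TGFB2 also passed in the authors' log2 ratios (0.10, adjusted p 0.0384), and it was at 0.12 with the processed signals (adjusted p 0.0556). Its mean was 0.09 on Cy5 arrays (adjusted p 0.0997) and 0.0007 on Cy3 arrays (adjusted p 0.989). No pair of ligands differed past the threshold: TGFB1 minus TGFB2 was 0.02 (95% interval -0.04 to 0.08), TGFB1 minus TGFB3 was -0.01 (-0.08 to 0.06), and TGFB2 minus TGFB3 was -0.03 (-0.10 to 0.03).

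**Figure D4:**
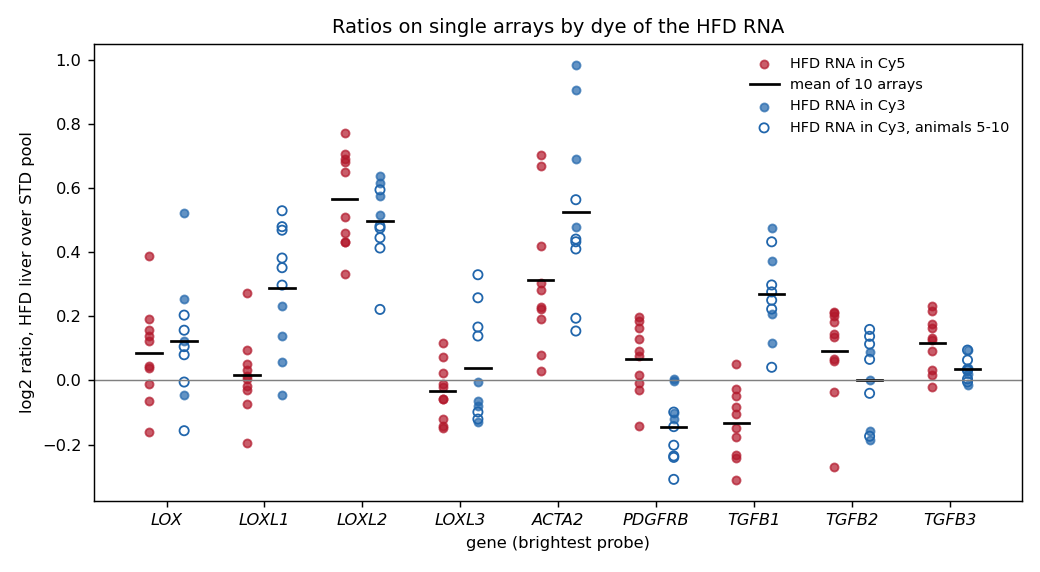
Log2 ratio of HFD liver over the STD pool (vertical axis) on each of 20 single arrays for the brightest probe of each gene (horizontal axis); filled points left have HFD RNA in Cy5, points on the right have it in Cy3, open circles are the 6 arrays that stood apart, and lines are means of 10 arrays. LOXL2 and ACTA2 lie above 0 on all 20 arrays, whereas the means of TGFB1 are -0.13 and 0.27.

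Partners and substrates of the lysyl oxidases went both ways. Of 26 such genes tested, 6 were higher, 7 lower and 13 not called, with a median of -0.01. The counts of this list and of those that follow are to be read against all genes, of which 31.4% were higher and 28.9% lower. PLOD1, which hydroxylates the collagen lysines that later enter crosslinks, rose by 0.57 ± 0.12 (adjusted p 7.15e-08), and its 8 other probes all rose. COL1A1, the alpha 1 chain of collagen I, was higher by 0.51 ± 0.22 in 10 of 10 animals (adjusted p 1.25e-05) by its brightest probe, while neither of its 2 other probes was called. COL1A2, the partner chain, was at -0.07 ± 0.09 and COL3A1 at 0.04 ± 0.10, neither called.

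The lowest of the partners were the enzyme that processes procollagen and the lysyl oxidase proenzyme, and its helper. BMP1, the procollagen C-proteinase, fell by 0.65 on the log2 scale (SD 0.16, adjusted p 1.24e-07), and all 20 of its other probes fell too. PCOLCE, the enhancer of that proteinase, fell by 0.63 (SD 0.31, adjusted p 2.61e-05), as did its 5 other probes. Both were below the pool in 10 of 10 animals.

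Among 16 genes that store or release latent TGF beta, 4 were higher and 6 lower, with a median of -0.01. The integrin subunits ITGB5 (0.51 ± 0.14) and ITGAV (0.48 ± 0.11), which together form a receptor that can release TGF beta, rose in 10 of 10 animals. Both other ITGAV probes rose, and 2 of 6 others of ITGB5. ITGB3 (-0.27 ± 0.12) and LTBP1 (-0.26 ± 0.12), the latter a protein that anchors latent TGF beta in the matrix, fell in 10 of 10, although 2 of 9 other ITGB3 probes rose and none fell.

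The receptors and SMADs counted 5 higher and 8 lower of 22, with a median of -0.04. TGFBR1, the type I receptor, rose by 0.66 ± 0.24 (adjusted p 2.74e-06), as did its 8 other probes. TGFBR2, the type II receptor, was lower by its brightest probe (-0.34 ± 0.18, adjusted p 6.59e-05), yet of its 10 other probes 8 were higher and 2 lower, so that no direction holds for the gene. The corepressor TGIF1 was higher (0.31 ± 0.35, 7 of 10 animals). The inhibitory SMAD6 was lower by its brightest probe (-0.30 ± 0.14, 10 of 10), while 1 of its 6 other probes was higher and none lower.

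Of 17 known targets of TGF beta, 3 were higher and 5 lower, with a median of 0.01. CDKN2B, a cell cycle inhibitor, rose by 0.46 ± 0.25, as did its 4 other probes, and COL1A1 is the other example of the higher ones. ID3, a regulator of differentiation, fell by 0.52 (SD 0.38), and TAGLN, a smooth muscle actin-binding protein, by 0.41 (SD 0.37), each in 9 of 10 animals. In the PDGF system, 3 of 13 genes were higher and 3 lower. The ligand gene PDGFA rose by 0.76 ± 0.22 in 10 of 10 animals (adjusted p 3.73e-07), with 5 of 6 other probes higher. PIK3CA was higher by 0.13 ± 0.16 by its brightest probe, while of its 7 other probes 2 were higher and 1 lower. PDGFRA (-0.25 ± 0.19) and PIK3R1 (-0.29 ± 0.34) were lower.

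**Figure D5:**
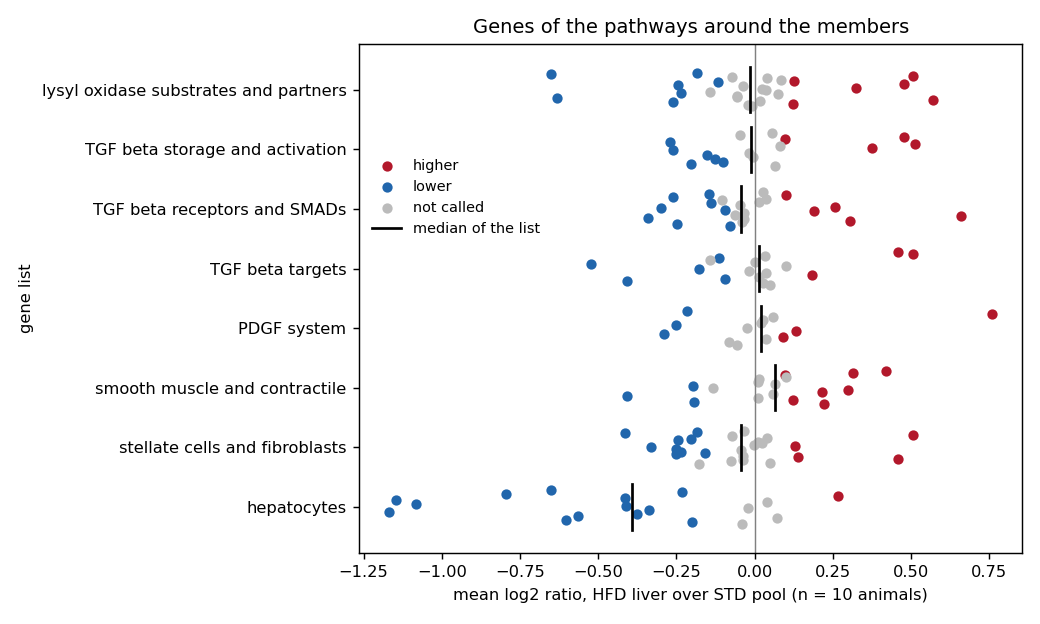
Mean log2 ratio of HFD liver over the STD pool (horizontal axis, n = 10 animals) for the genes of 8 lists (vertical axis), each by its brightest probe; colours give the call and the black line the median of the list. All lists but the hepatocyte one have a median between -0.04 and 0.06 and hold genes called in both directions.

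Markers of the cell types known for these genes held calls in both directions; PDGFRB itself is in the stellate list and ACTA2 in the smooth muscle list. Of 25 stellate cell and fibroblast genes, 4 were higher and 9 lower, and the median over the list was below 0 in all 10 animals (-0.19 to -0.01). The sign of this median turned with the dye: it was 0.008 on Cy5 arrays and -0.13 on Cy3 arrays. COL1A1 and the pericyte gene RGS5 (0.46 ± 0.30) were the highest of the list. COL14A1 (-0.41 ± 0.24) and the stellate transcription factor HAND2 (-0.33 ± 0.12) were its lowest called genes, though 9 of the 18 other COL14A1 probes rose. LRAT, a defining stellate gene, was not analysed here. Of 17 smooth muscle genes, 7 were higher and 3 lower, with animal medians from -0.04 to 0.15. ACTA2 and ACTG2 (0.31 ± 0.14) headed them, and TAGLN and LMOD1 (-0.20 ± 0.19) were the lowest, though the 1 other LMOD1 probe was not called.

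Markers of the other cells of the liver were counted in the same way. Of 18 hepatocyte genes, 13 were lower and 1 higher, with a median of -0.39 (animal medians -0.55 to -0.22): ARG1 fell by 1.15 (SD 0.27), FGB fell by 1.17 (SD 0.40), and APOB rose by 0.27 ± 0.15. Of 14 macrophage genes, 6 were higher and 3 lower (animal medians -0.08 to 0.44), with LGALS3 at 1.30 ± 0.37 and CD163 at -1.25 ± 0.32. Endothelial genes counted 6 higher and 3 lower of 17, genes of portal fibroblasts and mesothelium 2 and 3 of 12, and genes of cholangiocytes 2 and 2 of 12. The part of cell composition in the ratios of LOXL2 and ACTA2 was not tested.

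Over the 10 animals, the genes whose ratios were most like those of LOXL2 were CLK2 (Pearson r 0.94), SHARPIN (0.92) and CCDC48 (0.90), each animal's value taken as the deviation from the mean of animals 1 to 4 or 5 to 10. Their own mean ratios were -0.11, -0.01 and 0.04. These are the highest of 13827 correlations over animals that share the pool, and they are given as a description.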

How the data were processed

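Liver RNA of 10 HFD hamsters was measured against 1 STD pool on 20 two-colour arrays. The deposited spot intensities (mean signal, median background) come from Agilent Feature Extraction 10.7.3.1, per the file headers, which also hold background-subtracted, LOWESS-normalised intensities. The authors deposited log2 ratios per probe and animal, made with limma per the submitters' processing notes; their other steps: not given in the sources used here. Their column medians for animals 1 to 10 were -0.000128, -0.0145, -0.000492, -0.00171, 0.0185, -0.0122, -0.00991, 0.00750, -0.00120 and -0.0103. They ran as HFD over pool and correlated with the ratios computed here at 0.88 to 0.95 per animal, and their exact scale and centring stay unknown.

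Intensities were corrected with normexp (offset 50) and normalised by loess within arrays in limma 3.58.1 (R 4.3.3), with control spots at weight 0. Spots of a probe were averaged, ratios turned to HFD over pool, and the 2 arrays of an animal averaged to 1 replicate. Mean ratios were tested against 0 with lmFit and eBayes, two-sided, with Benjamini-Hochberg adjustment; the fit was checked on simulated data. Single values were also tested by exact sign-flip permutation over animals. The number of arrays limits the precision.

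Members, lists and tests were chosen with earlier results of these data known. The text names all members. Called genes named from a list are among its 2 highest and 2 lowest called genes. For the macrophage, endothelial, portal and cholangiocyte lists, not all of these are named. COL1A2, COL3A1, other actins and comparisons between probes or members were added after values were seen. Names of genes come from the array's design; 10 of 10 member names occur in the RefSeq annotation of BCM_Maur_2.0. Some sequence comparisons are not reported here. Alternatives varied background, normalisation, filter, probe choice, dye, arrays, animals, slide, scan session and variance model.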

Additional observations from a re-analysis of the deposited data

Results flagged for a closer look

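In the 37 sets of 10 animals looked at, 4 held an animal far from the others by Dixon's criterion for 10 values, which chance meets in about 1 in 20 sets. For LOX, animal 1 lay at 0.46, with a gap of 0.481 of the whole range. A dim LOXL1 probe, well above background on 19 arrays, had animal 1 lowest at -0.13 (gap 0.472). An ACTA2 probe of mean 0.01 had animal 4 highest at 0.33 (gap 0.533), and a PDGFRB probe of mean 0.05 had animal 1 lowest at -0.17 (gap 0.468).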

How the results depend on the processing

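LOXL2 kept its direction and its call in all 30 other settings (0.32 to 0.62), and ACTA2 in 29 of 30, the exception being the mean of all probes. The cause of the changes below was not tested, except that subsets hold fewer samples. Member genes called higher were 2 (main 4) with the mean of all probes and in animals 1 to 4, and 4 to 6 when each animal was left out. Member genes called lower were 1 (main 0) on Cy5 arrays, on Cy3 arrays and with the brightest probe of another transcript. With the slide as block, 16 member probes were higher (main 10) and 7 lower (main 3). That fit counts the 2 arrays of an animal as separate, and over all genes it gave 5041 higher and 4667 lower. Member probes lower were 0 without the 6 arrays and in animals 1 to 4, 6 in animals 5 to 10 and 1 in the later scan sessions; leaving out each animal gave 3 to 5 lower (5 without animal 2 or animal 4) and 10 to 12 higher. Over all genes, animals 1 to 4 gave 2225 higher and 1614 lower (main 4343 and 3991), the 14 arrays 2529 lower, and leaving out each animal 4054 to 4496 higher and 3754 to 4049 lower. Signs turned for LOXL1 at -0.0796 with another transcript, for TGFB1 at -0.132 on Cy5 arrays, and for PDGFRB at 0.0129 with median centring, 0.0680 on Cy5 arrays, 0.00861 on the 14 arrays and 0.0489 with another transcript. LOXL3 was at -0.0257 with median centring, -0.0345 on Cy5 arrays, -0.00821 in the authors' log2 ratios, -0.0508 on the 14 arrays, -0.0582 in animals 1 to 4, -0.0438 in the later sessions, and -0.0197 to 0.0180 when each animal was left out (below 0 without animal 1, 6, 7, 8 or 10). Scan sessions and the second transcripts were added after seeing the data; the test within a session was not run, since none held both arrays of 3 animals. No paired analysis was possible because the labels hold 1 group only.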
